A study of Mus musculus with 10 samples.

Results

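The genes described here are the orphan and adhesion G-protein coupled receptors of mouse brown adipose tissue. They were taken by name, as every protein-coding gene whose symbol starts with Gpr and a digit or with Adgr. This rule gave 83 of the 26863 genes in the deposited table, 59 Gpr genes and 24 Adgr genes, and it used no measured value. The pseudogenes Gpr137b-ps and Gpr31a were left out by the rule. Bulk polyA RNA of interscapular brown fat was sequenced in 10 libraries, 5 from PnocCre mice and 5 from Wildtype mice. All 10 were collected 1 h after an injection of CNO (clozapine-N-oxide), a drug that switches on designer receptors. The series describes the study as activating neurons of the medial preoptic area that express prepronociceptin (PNOC), and the genotype name gives Pnoc as the gene that drives Cre. The labels do not give the designer receptor, whether Wildtype mice carried it, the age or the sex, and no group without CNO was analysed here. They do not say whether each library is a separate animal, so a p-value here reflects spread among the libraries alone, which may be technical. Replicate numbers are in accession order and pair no libraries.

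G-protein coupled receptors cross the membrane several times and pass an outside signal to G proteins, which raise or lower cyclic AMP or release calcium. The receptors still named Gpr are mostly those for which no ligand was known when they were named. Adhesion receptors carry a long outer part that binds matrix or proteins of neighbouring cells, and many cleave themselves so that a hidden stretch can act as the activator. Brown fat burns fuel when noradrenaline raises cyclic AMP in its adipocytes. In mouse brown fat the constitutively active Gpr3 is known to be induced by cold and to raise cyclic AMP without a ligand. The tissue also holds endothelial cells, macrophages and other leukocytes, fibroblasts and nerve sheath, and many of the 83 genes are known mainly from those cells.

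To show 2 kinds of start site among these genes, the 250 bases before the first listed RefSeq start are printed for 6 of them, 5′ to 3′ on the strand of the gene, with each CG dinucleotide in capitals. The coordinates are those of the RefSeq table, build GRCm38.p6, which is not the GRCm39 build of the deposited table. Gpr65, Gpr183 and Gpr174 are shown because they are known from leukocytes and have high values in the same library.
Gpr65 (chr12:98268385-98268634, plus strand): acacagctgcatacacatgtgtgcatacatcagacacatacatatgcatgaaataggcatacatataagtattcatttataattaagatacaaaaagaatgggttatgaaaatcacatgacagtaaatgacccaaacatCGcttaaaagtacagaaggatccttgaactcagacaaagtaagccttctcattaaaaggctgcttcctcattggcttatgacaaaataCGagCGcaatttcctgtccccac
Gpr183 (chr14:121965194-121965443, minus strand): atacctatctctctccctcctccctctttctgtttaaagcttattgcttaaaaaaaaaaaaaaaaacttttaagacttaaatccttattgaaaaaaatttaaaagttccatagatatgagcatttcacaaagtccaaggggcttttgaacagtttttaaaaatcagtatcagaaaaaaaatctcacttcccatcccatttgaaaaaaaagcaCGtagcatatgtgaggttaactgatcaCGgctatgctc
Gpr174 (chrX:107284096-107284345, plus strand): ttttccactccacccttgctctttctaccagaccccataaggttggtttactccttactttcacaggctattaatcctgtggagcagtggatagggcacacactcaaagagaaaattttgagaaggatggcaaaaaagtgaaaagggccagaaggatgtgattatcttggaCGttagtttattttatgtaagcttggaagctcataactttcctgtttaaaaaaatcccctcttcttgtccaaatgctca
Gpr180, Gpr137 and Gpr108 are shown because they are among the 10 most abundant of the genes and stand on the list of internal-membrane proteins.
Gpr180 (chr14:118136877-118137126, plus strand): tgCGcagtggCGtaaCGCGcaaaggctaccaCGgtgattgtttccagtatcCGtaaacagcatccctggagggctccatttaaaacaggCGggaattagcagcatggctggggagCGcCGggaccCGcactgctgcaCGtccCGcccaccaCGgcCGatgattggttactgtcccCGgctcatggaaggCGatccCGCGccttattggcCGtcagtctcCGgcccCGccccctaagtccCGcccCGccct
Gpr137 (chr19:6942451-6942700, minus strand): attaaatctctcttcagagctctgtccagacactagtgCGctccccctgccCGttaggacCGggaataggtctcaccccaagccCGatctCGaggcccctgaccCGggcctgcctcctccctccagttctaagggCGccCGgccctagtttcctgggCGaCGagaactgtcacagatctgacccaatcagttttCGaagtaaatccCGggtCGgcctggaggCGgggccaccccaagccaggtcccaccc
Gpr108 (chr17:57247690-57247939, minus strand): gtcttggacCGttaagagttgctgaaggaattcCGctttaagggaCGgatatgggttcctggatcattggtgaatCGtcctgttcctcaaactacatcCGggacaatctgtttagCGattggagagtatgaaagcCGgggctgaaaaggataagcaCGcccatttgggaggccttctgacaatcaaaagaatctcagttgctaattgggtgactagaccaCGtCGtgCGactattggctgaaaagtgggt

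The first set held 3, 2 and 1 CG dinucleotides, in the order printed, and the second set held 23, 14 and 11. RefSeq windows were found for 60 of the 83 genes. The 12 leukocyte class A receptors with a window had a median of 2.5 CG dinucleotides (range 0 to 17), and the 7 proteins of internal membranes had a median of 17 (range 9 to 23). Over all 32851 windows of this length the median was 6, and over the 78 windows of the receptor genes it was 6.5. The GC box GGGCGG, searched on both strands, was present in 30 of the 78 windows (38.5%), against 32.7% of all windows. The core TGACG of the cyclic AMP response element was present in 15 of 78 (19.2%), against 17.8% of all windows. The full element TGACGTCA, which contains that core, was in 0 of 78, against 1.55% of all windows. These matches only describe the letters in these windows.

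The libraries held 21304238 to 29171787 reads. The tissue label was checked against 12 brown adipocyte markers, none at 0 in either group, whose summed level was 354261 to 439836 normalised counts in PnocCre libraries and 419200 to 503113 in Wildtype libraries. Normalised counts are read counts divided by the size factor of the library. Markers of other cells differed between libraries. The skeletal muscle list summed to 5806 to 176643 in PnocCre libraries, against 86.0 to 21579 in Wildtype libraries, where 1 of its 15 genes, Tnnc2, was at 0 throughout. The lymphocyte list of 14 genes summed to 7483 in PnocCre replicate 2, while the 4 remaining PnocCre libraries had 106 to 373, against 127 to 170 in Wildtype libraries. The macrophage list of 12 genes summed to 2509 to 5152 in PnocCre libraries and 2283 to 2921 in Wildtype libraries, and the fibroblast list of 10 genes summed to 9551 to 13908 in PnocCre libraries and 5686 to 9725 in Wildtype libraries. No lymphocyte, macrophage or fibroblast marker was at 0 throughout a group. In bulk tissue fewer cells of a type and less RNA per cell cannot be told apart.

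The receptor genes were a small part of the RNA. Together they took 0.0660% to 0.116% of the reads of a PnocCre library and 0.0651% to 0.0932% of a Wildtype library. PnocCre libraries each had reads for 68 to 75 of the 83 genes, and Wildtype libraries for 63 to 68. Of the 83, 48 had reads in all 10 libraries, 35 in fewer, and 14 of these in 5 or fewer. The mean over the libraries was at least 1000 normalised counts for 7 genes and below 1 for 13.

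Per length of gene, Adgrf5, a receptor of blood vessel endothelium, was the most abundant, with a mean of 24.3 reads per kilobase of gene per 1e6 reads (range 16.05 to 39.7 over the 10 libraries). Gpr108, a Golgi protein, followed at 21.7 (17.9 to 24.9), and its range lay within that of Adgrf5. Gpr137, which acts on growth signalling at the lysosome, had 15.4 (11.4 to 18.6). Adgrg1, a collagen receptor of endothelium and lymphocytes, had 12.2 (7.69 to 21.6), Adgrl4, an endothelial receptor, 11.8 (6.56 to 24.1), and Adgre5, the leukocyte protein CD97, 11.8 (9.43 to 17.9). Gpr180, which has been linked to TGF-beta signalling in thermogenic fat, had 11.2 (10.2 to 12.7). Gpr137 and these 4 overlapped one another in range, so their order is not set by these libraries. Gpr146, known in mice as a regulator of plasma cholesterol, had 8.91 (6.96 to 10.7), the proton sensor Gpr4 had 6.56 (3.87 to 15.1), and the orphan Gpr135 had 4.64 (2.43 to 8.40). Among these 10, the ranges of Gpr180 and Gpr108 were narrow and those of the endothelial genes were wide.

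**Figure D1:**
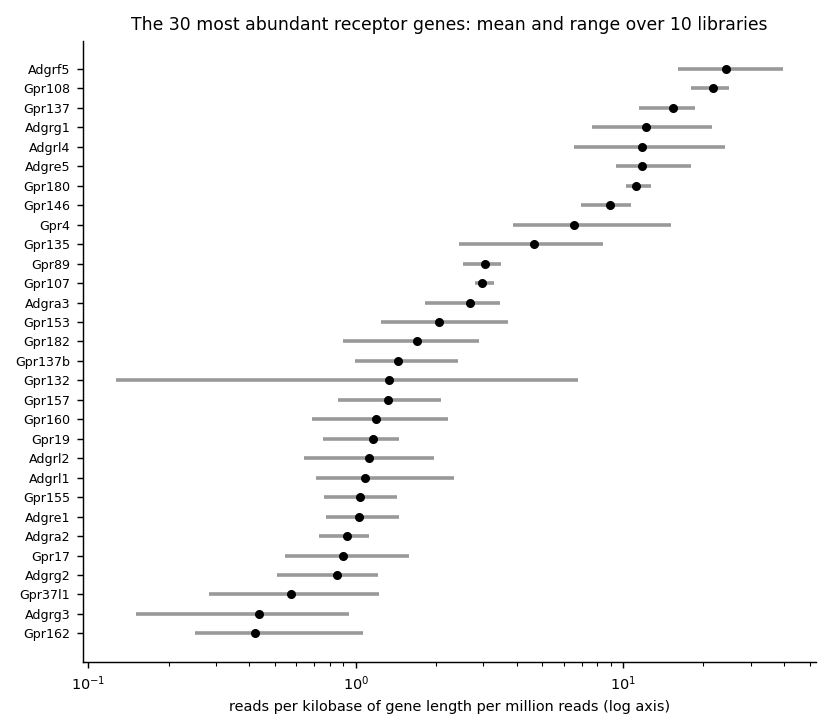
Levels of the 30 most abundant of the 83 receptor genes, in reads per kilobase of gene length and 1e6 reads, on a log axis; points are means over the 10 libraries of both groups and bars run from the lowest to the highest library. Adgrf5 leads at 24.3 and Gpr108 follows at 21.7, while Gpr132, a leukocyte receptor with a mean near that of Gpr137b, has the widest bar.

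The design compares PnocCre with Wildtype mice 1 h after CNO, and asks how brown fat RNA differs once the PNOC neurons have been activated. Among the receptor genes, the acid sensor Gpr65 of lymphocytes and macrophages was higher in every PnocCre library than in any Wildtype library. Its counts were low, and it could be tested only through PnocCre replicate 2. Several other leukocyte receptors were high mainly in PnocCre replicate 2. Several Golgi and lysosome proteins, Gpr108 and Gpr137 among them, had lower means in PnocCre libraries, and 13 of the 16 tested adhesion receptors had a fitted change above 0. Tests covered the 46 receptor genes that averaged 10 normalised counts or more over the libraries. Of these, 0 passed an adjusted p of 0.05 with limma, where 0 of all 15301 tested genes (0%) passed. The smallest adjusted p of a receptor gene was 0.129, that of Gpr65. An unadjusted p under 0.05 was reached by 11 of the 46 (23.9%), against 17.0% of all tested genes. Of these, 8 (17.4%) were higher in PnocCre libraries, against 8.94% of all tested genes, and 3 (6.52%) were lower, against 8.07%. Fitted changes were above 0 for 35 of the 46 (76.1%), against 49.3% of all tested genes, and the median log2 fold change was 0.23, against -0.0062. Of the 46, 6 (13.04%), Gpr65 among them, passed the filter on low values only through PnocCre replicate 2, against 1.68% of all tested genes. For these 6 the filter favoured a higher mean in PnocCre libraries, though Gpr65 kept its direction without that library. Without PnocCre replicate 2, 27 of 40 tested receptor genes (67.5%) were above 0, against 48.2% of all genes. Without it 4 genes were higher and 2 lower at an unadjusted p under 0.05 (15.0% together, against 12.4% of all genes), and the median was 0.12. Without Wildtype replicate 5 the number at that threshold was 7 of 47 (14.9%), against 13.5% of all genes. The median was 0.36 without PnocCre replicate 4 and 0.36 without Wildtype replicate 1.

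DESeq2 on the recovered reads called 1 of the 48 receptor genes that it gave an adjusted p, where it called 575 of 16733 genes (3.44%), 2.20% as higher in PnocCre libraries. The authors' deposited table also calls 575 of 16733 (3.44%) at an adjusted p of 0.05. The gene is Gpr65. DESeq2 called 0 without PnocCre replicate 2. It called Gpr65 and Adgrl2 without PnocCre replicate 3 or Wildtype replicate 1, and these 2 and Gpr108 without PnocCre replicate 5. The share of all genes called is not given for these fits, so their counts cannot be set against a background. edgeR's quasi-likelihood test called 0 and gave 13 of 46 (28.3%) an unadjusted p under 0.05, against 17.6% of all genes. The values of the 5 libraries of each group did not overlap for 1 of the 46 (2.17%), again Gpr65 and higher in PnocCre libraries, against 4.40% of all tested genes, or 1.79% in that direction. With 1 library left out this count was 0 (without PnocCre replicate 2, where Gpr65 was under the filter) to 4 (without Wildtype replicate 1 or 3). Without PnocCre replicate 2 the share of all genes was 4.99%. The 4 were 8.51% and 8.33% of the receptor genes tested there, against 7.95% of all genes without Wildtype replicate 1 and 6.18% without Wildtype replicate 3. It was 2 without PnocCre replicate 4 or 5 or Wildtype replicate 5, and 3 without Wildtype replicate 2, where the shares of all genes were 5.48% to 6.87%. Of the 46, 16 (34.8%) were highest in PnocCre replicate 2, against 18.6% of all tested genes. The remaining 37 receptor genes were too low to test, and 29 of them (78.4%) had a higher mean in PnocCre libraries, against 63.1% of all genes under the filter with a read. PnocCre replicate 2 was the highest library of 16 of the 37 (43.2%), against 21.1% of those genes.

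**Figure D2:**
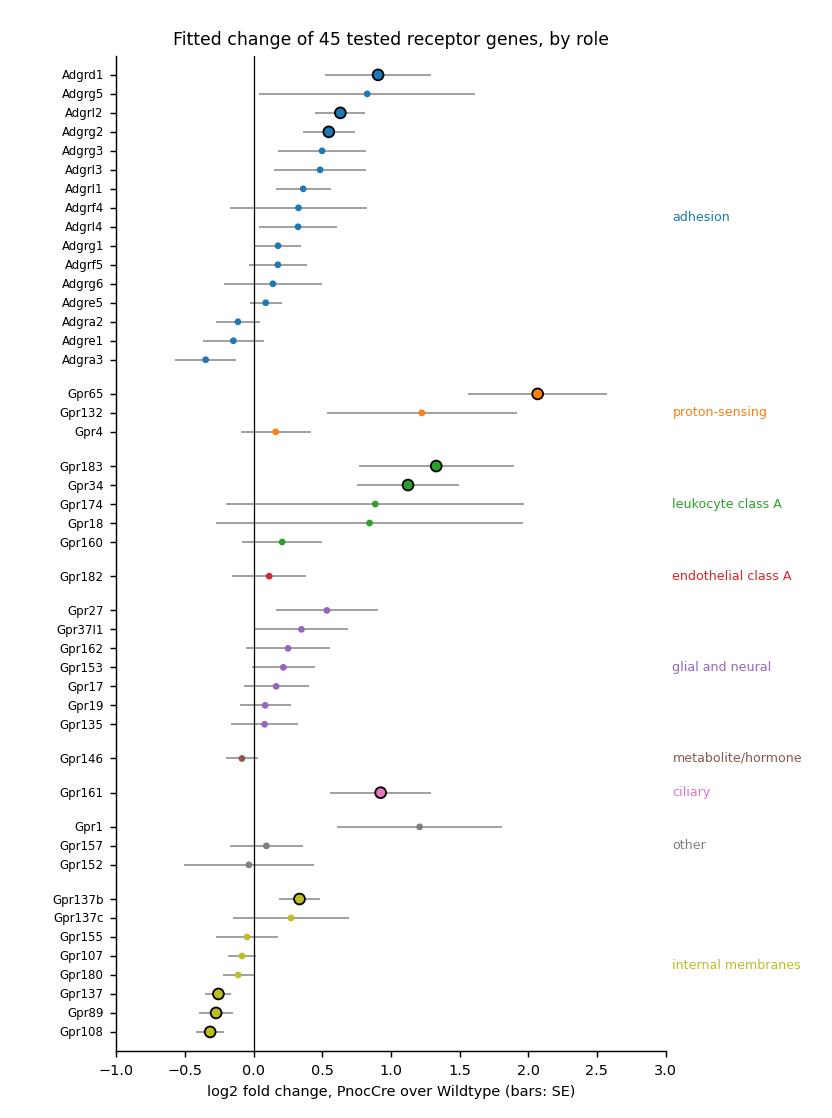
Fitted log2 fold change (PnocCre over Wildtype, on the log2 scale of normalised counts plus 1) of 45 of the 46 tested receptor genes, by role; bars are standard errors, and large outlined points have an unadjusted p under 0.05. Most points lie right of 0, with Gpr65 farthest at 2.07, while 6 of the 8 proteins of internal membranes lie left of 0.

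The proton-sensing receptors are class A receptors that acid outside the cell switches on. All 4 could be tested, 2 of them, Gpr65 included, only through the counts of PnocCre replicate 2, and 1 reached an unadjusted p under 0.05. Gpr65 (chr12:98234894-98242903, GRCm39, plus strand) raises cyclic AMP in lymphocytes and macrophages. It had 19.0, 41.8, 10.8, 8.12 and 13.02 normalised counts in PnocCre libraries, against 2.47, 5.38, 5.27, 1.16 and 2.32 in Wildtype libraries. Every PnocCre library lay above every Wildtype library, with the highest value in PnocCre replicate 2. The groups were parted by a small gap between low counts, 8.12 in PnocCre replicate 4 against 5.38 in Wildtype replicate 2. This gap was not tested against sampling noise. The means were 18.6 ± 13.6 in PnocCre libraries and 3.32 ± 1.90 in Wildtype libraries (SD, n = 5 each). The log2 fold change was 2.07 ± 0.51 (SE), with an adjusted p of 0.129 in limma, and 1.37 where 5 was added to each value in place of 1. The authors' deposited table gives 2.48 with an adjusted p of 0.0108 (DESeq2). Without PnocCre replicate 2 the DESeq2 call was lost (1.94, adjusted p = 0.0722), the limma change without a filter on low values was 1.73 (adjusted p = 0.258), and the groups still did not overlap. Lymphocyte and macrophage markers were also highest in that replicate, and their part in the result was not tested.

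Gpr132 (chr12:112814493-112831848, minus strand), a receptor of lymphocytes and macrophages for oxidised fatty acids, had 127, 357, 62.2, 27.4 and 23.0 normalised counts in PnocCre libraries. It had 34.6, 42.0, 38.0, 45.4 and 9.30 in Wildtype libraries. The groups overlapped, with PnocCre replicates 1 and 2 high and PnocCre replicates 4 and 5 within the Wildtype range. The log2 fold change was 1.22 ± 0.69 (SE; limma adjusted p = 0.376), and 0.65 without PnocCre replicate 2 and without a filter.

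Gpr4 (chr7:18946463-18958099, plus strand), the proton sensor of endothelium, was the most abundant of the 4 per length of gene. It had 878, 444, 435, 336 and 287 normalised counts in PnocCre libraries, against 473, 421, 379, 417 and 300 in Wildtype libraries. PnocCre replicate 1 stood above the other 9, and those overlapped between the groups. The change was 0.16 ± 0.26 (SE) on the log2 scale (limma adjusted p = 0.754), and -0.090 without PnocCre replicate 1.

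The leukocyte class A receptors (14 genes, 5 tested) had fitted changes of 0.21 to 1.33. Of the 5, 2 (Gpr174 and Gpr18) reached a mean of 10 normalised counts only through PnocCre replicate 2, so that library set their direction, and 2 others reached an unadjusted p under 0.05. Gpr34 (chrX:13498328-13507097, plus strand), a lysophosphatidylserine receptor of macrophages and microglia, lies within Cask on the opposite strand. It had 19.9, 34.5, 18.9, 12.2 and 14.02 normalised counts in PnocCre libraries, against 6.59, 8.61, 9.49, 4.66 and 12.8 in Wildtype libraries. A single PnocCre library, replicate 4, lay below the highest Wildtype library. The change was 1.12 ± 0.37 (SE; limma adjusted p = 0.186).

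Gpr183 (chr14:122189963-122202607, minus strand), the oxysterol receptor that guides B cells and other leukocytes, lies within Ubac2 on the opposite strand. It had 26.0, 125, 18.03, 16.2 and 16.02 normalised counts in PnocCre libraries, against 10.7, 6.46, 22.2, 5.82 and 12.8 in Wildtype libraries. PnocCre replicate 2 stood far above the rest, and the groups overlapped through Wildtype replicate 3. The change was 1.33 ± 0.57 (SE; limma adjusted p = 0.264), 0.79 without PnocCre replicate 2, and 0.66 with the mean of the lymphocyte markers as a covariate.

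The same library held most of the reads of several further leukocyte receptors, named after their values were seen. It was the highest library of 9 of the 14 leukocyte class A receptors and of 32 of all 83 receptor genes. Among the others, also named after their values were seen, Gpr160 was highest in Wildtype replicate 1, Gpr84 in Wildtype replicate 3 and Gpr35 in PnocCre replicate 1. Gpr18, next to Gpr183 on chromosome 14 and likewise within Ubac2, had 84.4 normalised counts in PnocCre replicate 2, with 0 to 4.51 in its group's other libraries, against 0 to 3.29 in Wildtype libraries. Gpr174, a lysophosphatidylserine receptor of lymphocytes, had 128 in PnocCre replicate 2, with 0 to 4.51 in its group's other libraries, against 1.05 to 3.49 in Wildtype libraries. Gpr171, known from T cells, had 52.7 in that replicate, with 1.80 to 7.79 in its group's other libraries, against 0 to 6.99 in Wildtype libraries. Each was low in the other 9 libraries, so the high mean of the PnocCre group came from 1 library. PnocCre replicate 2 held 93.9% of the summed PnocCre counts of Gpr174, 92.2% of those of Gpr18 and 77.1% of those of Gpr171. The share was 62.2% for Gpr183, 59.8% for Gpr132, 45.0% for Gpr65 and 34.7% for Gpr34. Lymphocyte markers were highest in the same library, with a mean log2 level of 8.88 there, 2.44 to 4.32 in its group's other libraries and 2.92 to 3.31 in Wildtype libraries. Their part in these values was not tested.

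**Figure D3:**
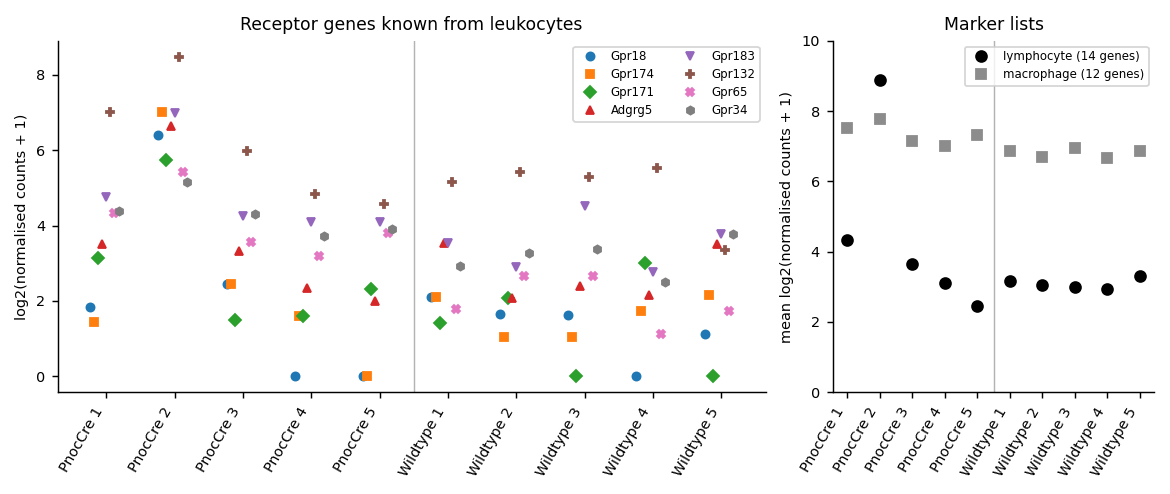
Left, log2(normalised counts + 1) of 8 receptor genes known from leukocytes in each of the 5 PnocCre and 5 Wildtype libraries; right, the mean log2 level of the lymphocyte and macrophage marker lists in the same libraries, which have no order within a group. All 8 genes and the lymphocyte markers (8.88) are highest in PnocCre replicate 2. The 8 include genes chosen after their values were seen, and 9 of all 14 leukocyte class A receptors are highest there.

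Among the adhesion receptors, 16 of 24 could be tested, with Adgrg5 tested only through PnocCre replicate 2. Of the 16, 13 were above 0 and 3 below (median 0.32), where 49.3% of all tested genes were above 0. At an unadjusted p under 0.05, 3 were higher in PnocCre libraries, against 8.94% of all tested genes. At that threshold 0 were lower, against 8.07%. In the leukocyte group ADGRE, 1 of the 2 tested genes was above 0 and 1 below. Adgre1 (chr17:57665691-57790527, plus strand), which encodes the macrophage antigen F4/80, had 90.0, 55.4, 92.9, 70.1 and 66.1 normalised counts in PnocCre libraries. It had 60.1, 80.7, 120, 71.1 and 87.1 in Wildtype libraries. The groups overlapped throughout, and PnocCre replicate 2 had the lowest value of all 10. The change was -0.15 ± 0.22 (SE; limma adjusted p = 0.735), while all 12 macrophage markers had a fitted change above 0 and 8 reached an unadjusted p under 0.05.

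Adgre5 (chr8:84449880-84467955, minus strand), which is CD97, had 1185, 1302, 877, 1031 and 977 normalised counts in PnocCre libraries, against 1105, 907, 1028, 924 and 1058 in Wildtype libraries. The gene overlaps Ddx39a on the opposite strand. The groups overlapped, and the change was 0.09 ± 0.12 (SE; limma adjusted p = 0.708). Its binding partner Cd55, a shield against complement, averaged 196 in PnocCre libraries and 82.5 in Wildtype libraries (1.13 ± 0.27, SE; limma adjusted p = 0.128). Cd55 had 366 in PnocCre replicate 2 and 115 to 207 in its group's other libraries, against 71.0 to 98.0 in Wildtype libraries. Without that replicate its change was 0.87. Adgre4 and Adgrg5 were named after their values were seen. Adgre4, a myeloid receptor, had 9.01 to 13.6 in PnocCre libraries and 3.29 to 11.6 in Wildtype libraries. Adgrg5, known from leukocytes, had 99.9 in PnocCre replicate 2, with 3.004 to 10.4 in its group's other libraries, against 3.23 to 10.7 in Wildtype libraries.

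The vascular receptors were abundant, and for Adgrf5 and Adgrl4 the means of the genotypes differed by less than the SD within PnocCre libraries. Adgrf5 (chr17:43671342-43770448, plus strand) had 6959, 6920, 5084, 4230 and 3826 normalised counts in PnocCre libraries, against 7079, 3702, 4148, 4491 and 4415 in Wildtype libraries. Adgrl4 (chr3:151143524-151250723, plus strand) had 2775, 2305, 1687, 970 and 1054 in PnocCre libraries, against 1926, 1200, 1179, 1278 and 1035 in Wildtype libraries. Both genes were high in PnocCre replicates 1 and 2 and Wildtype replicate 1, and in both the groups overlapped. The changes were 0.18 ± 0.21 (SE; limma adjusted p = 0.67) for Adgrf5 and 0.32 ± 0.28 (SE; limma adjusted p = 0.559) for Adgrl4. The 12 endothelial markers summed to 42120 and 37186 in PnocCre replicates 1 and 2, and the 3 remaining PnocCre libraries had 22315 to 26081. The sum was 38374 in Wildtype replicate 1, and the 4 remaining Wildtype libraries had 19881 to 24202. Their part in these values was not tested.

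Adgrg1 (chr8:95701379-95740845, plus strand) had 2363, 1595, 1471, 1351 and 1420 normalised counts in PnocCre libraries, against 1797, 1475, 1304, 1485 and 1121 in Wildtype libraries. PnocCre replicate 1 stood above the others and the groups overlapped (0.18 ± 0.17, SE; limma adjusted p = 0.583). Its ligand Col3a1, a fibrillar collagen, averaged 6269 in PnocCre libraries and 3905 in Wildtype libraries (0.72 ± 0.21, SE; unadjusted p under 0.05). Adgrg1 lies between Adgrg5 and Adgrg3 on chromosome 8, with gaps of 31471 and 3475 bases. Adgrg3, known from granulocytes and named after its values were seen, had 52.1 to 132 in PnocCre libraries and 27.9 to 76.4 in Wildtype libraries, with its highest value in PnocCre replicate 1, as for Adgrg1. The highest library of Adgrg5 was PnocCre replicate 2.

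Gpr182, an atypical chemokine receptor of endothelium also named after its values were seen, had 95.1 to 231 in PnocCre libraries and 95.3 to 180 in Wildtype libraries. The remaining vascular gene, Adgra2 (chr8:27575611-27613464, plus strand), is a partner in Wnt signalling at brain vessels. It had 104, 125, 103, 155 and 130 in PnocCre libraries, against 145, 108, 135, 129 and 149 in Wildtype libraries. The groups overlapped (-0.12 ± 0.16, SE; limma adjusted p = 0.714). Adgra2 overlaps Brf2 on the opposite strand.

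**Figure D4:**
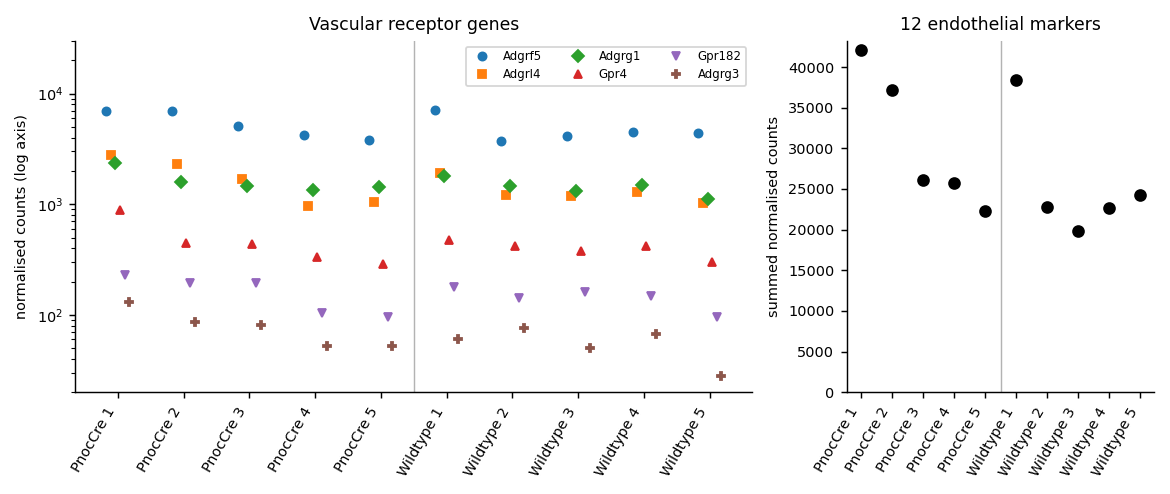
Left, normalised counts on a log axis of 6 receptor genes in the 5 PnocCre and 5 Wildtype libraries. They are vascular apart from Adgrg3, which is known from granulocytes, and the vascular gene Adgra2 is not drawn. Right, the summed normalised counts of 12 endothelial markers in the same libraries, which have no order within a group. The marker sums are highest in PnocCre replicate 1 (42120) and Wildtype replicate 1 (38374), and Adgrf5 and Adgrl4 are high in those libraries too.

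The latrophilins (ADGRL, 4 genes counting Adgrl4) bind teneurins and FLRT proteins of neighbouring cells, Adgrl4 aside. All 4 changes were above 0 (median 0.42, range 0.32 to 0.63). Adgrl2 (chr3:148521219-148696191, minus strand) had 563, 531, 348, 450 and 352 normalised counts in PnocCre libraries, against 405, 267, 283, 231 and 261 in Wildtype libraries. Wildtype replicate 1 lay above the PnocCre replicates 3 and 5, and the other Wildtype libraries lay below every PnocCre library. The means were 449 ± 99.2 in PnocCre libraries and 289 ± 67.4 in Wildtype libraries (SD, n = 5 each), and the change was 0.63 ± 0.18 (SE; limma adjusted p = 0.16). The authors' deposited table gives an adjusted p of 0.0511. The teneurin gene Tenm3 had a change of 0.98 at an unadjusted p under 0.05.

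Among the other adhesion receptors, Adgrg2 (chrX:159173686-159281066, plus strand) is best known from the epididymis. It had 104, 103, 142, 133 and 150 normalised counts in PnocCre libraries, against 64.2, 107, 72.8, 95.5 and 94.1 in Wildtype libraries. Wildtype replicate 2 was the single library above any PnocCre library. The change was 0.55 ± 0.19 (SE; limma adjusted p = 0.194), and the gene overlaps a noncoding RNA, Gm15241, on the opposite strand.

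Adgrd1 (chr5:129173814-129281663, plus strand), a receptor that raises cyclic AMP, had 39.8, 84.4, 37.0, 67.0 and 130 normalised counts in PnocCre libraries, against 42.0, 19.4, 61.2, 30.3 and 29.0 in Wildtype libraries. The gene overlaps a pseudogene, Rps16-ps2, with a mean of 505 over the libraries, on the opposite strand. Within each group the values of Adgrd1 spread widely, and the groups overlapped. The change was 0.91 ± 0.38 (SE; limma adjusted p = 0.264), and 0.38 with the mean of the muscle markers as a covariate. PnocCre replicate 5, the highest library of Adgrd1, was also the highest in muscle markers, at 176643 normalised counts. PnocCre replicate 3 had more of these markers than PnocCre replicate 2 (43314 against 22805) but less Adgrd1. The covariate itself differed between the groups, at 7.28 to 12.1 in PnocCre libraries and 1.65 to 9.06 in Wildtype libraries (mean log2 level). The part of muscle in the Adgrd1 values was not tested. Adgrg6 (chr10:14278327-14421403, minus strand), which Schwann cells need to form myelin, had 50.2, 41.8, 15.3, 22.3 and 18.02 in PnocCre libraries, against 28.0, 20.4, 15.8, 31.5 and 27.9 in Wildtype libraries. The groups overlapped, and its change of 0.14 ± 0.36 (SE; limma adjusted p = 0.856) turned to -0.084 without PnocCre replicate 1. Adgra3, a relative of Adgra2 named after its values were seen, had the lowest change of the 46, -0.35, and its values were 284 to 687 in PnocCre libraries and 529 to 630 in Wildtype libraries.

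The brain adhesion receptors had few reads. The 3 ADGRB genes, which bind apoptotic cells and synaptic partners, had means of 1.10 to 2.54 normalised counts over the 10 libraries, and the giant receptor of the ADGRV group had 2.07. None of these 4 had reads in every library.

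The 8 proteins of internal membranes carry Gpr names, and those of known place work mostly on the Golgi and lysosome. All 8 could be tested, 6 were below 0 and 2 above (median -0.10, range -0.32 to 0.33), where 49.3% of all tested genes were above 0. At an unadjusted p under 0.05, 3 of the 8 were lower in PnocCre libraries, against 8.07% of all tested genes. Of the 8, 1 was higher, against 8.94% of all tested genes. The 3 were all of the lower receptor genes at that threshold, 6.52% of the 46 tested. The brown adipocyte markers were lower too, with all 12 fitted changes below 0 (median -0.35) and 4 at an unadjusted p under 0.05, and their part was not tested. Gpr108 (chr17:57541635-57555446, minus strand), a Golgi protein also needed for the entry of adeno-associated virus, had 1233, 1196, 1376, 1330 and 1501 normalised counts in PnocCre libraries. It had 1573, 1599, 1447, 1744 and 1919 in Wildtype libraries. The means were 1327 ± 121 in PnocCre libraries and 1657 ± 181 in Wildtype libraries (SD, n = 5 each), and the groups overlapped through PnocCre replicate 5. The change was -0.32 ± 0.10 (SE; limma adjusted p = 0.182).

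Gpr137 (chr19:6915425-6919848, minus strand) had 1078, 1225, 1270, 1007 and 1098 in PnocCre libraries, against 1481, 1380, 1207, 1372 and 1338 in Wildtype libraries. PnocCre replicates 2 and 3 lay above Wildtype replicate 3, and otherwise PnocCre libraries were lower (-0.26 ± 0.09, SE; limma adjusted p = 0.21). The gene overlaps Bad on the opposite strand. Gpr89 (chr3:96775597-96812662, minus strand), an anion channel that sets the acidity of the Golgi, had 325, 300, 354, 386 and 408 in PnocCre libraries, against 426, 348, 435, 475 and 461 in Wildtype libraries. The groups overlapped (-0.27 ± 0.12, SE; limma adjusted p = 0.281).

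Gpr137b (chr13:13532205-13568599, minus strand), a lysosomal relative of Gpr137, had 204, 234, 187, 152 and 165 normalised counts in PnocCre libraries, against 179, 142, 151, 127 and 144 in Wildtype libraries. The groups overlapped, and the change was 0.33 ± 0.15 (SE; limma adjusted p = 0.291), 0.53 with the muscle covariate and 0.22 with the lymphocyte covariate. Its near copy Gpr137b-ps averaged 176 in PnocCre libraries and 138 in Wildtype libraries, so reads may be split between them and the value is uncertain. Gpr155 (chr2:73171850-73216916, minus strand), a lysosomal sensor of cholesterol, had 113, 138, 136, 206 and 233 in PnocCre libraries, against 122, 184, 198, 137 and 198 in Wildtype libraries. The groups overlapped, and its change of -0.05 ± 0.23 (SE; limma adjusted p = 0.922) changed sign under several alternatives. Gpr180, at -0.11, and Gpr107, a Golgi protein at -0.09, were named after their values were seen. Gpr180 had 388 to 584 in PnocCre libraries and 509 to 534 in Wildtype libraries, and Gpr107 had 732 to 1004 in PnocCre libraries and 858 to 1024 in Wildtype libraries.

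**Figure D5:**
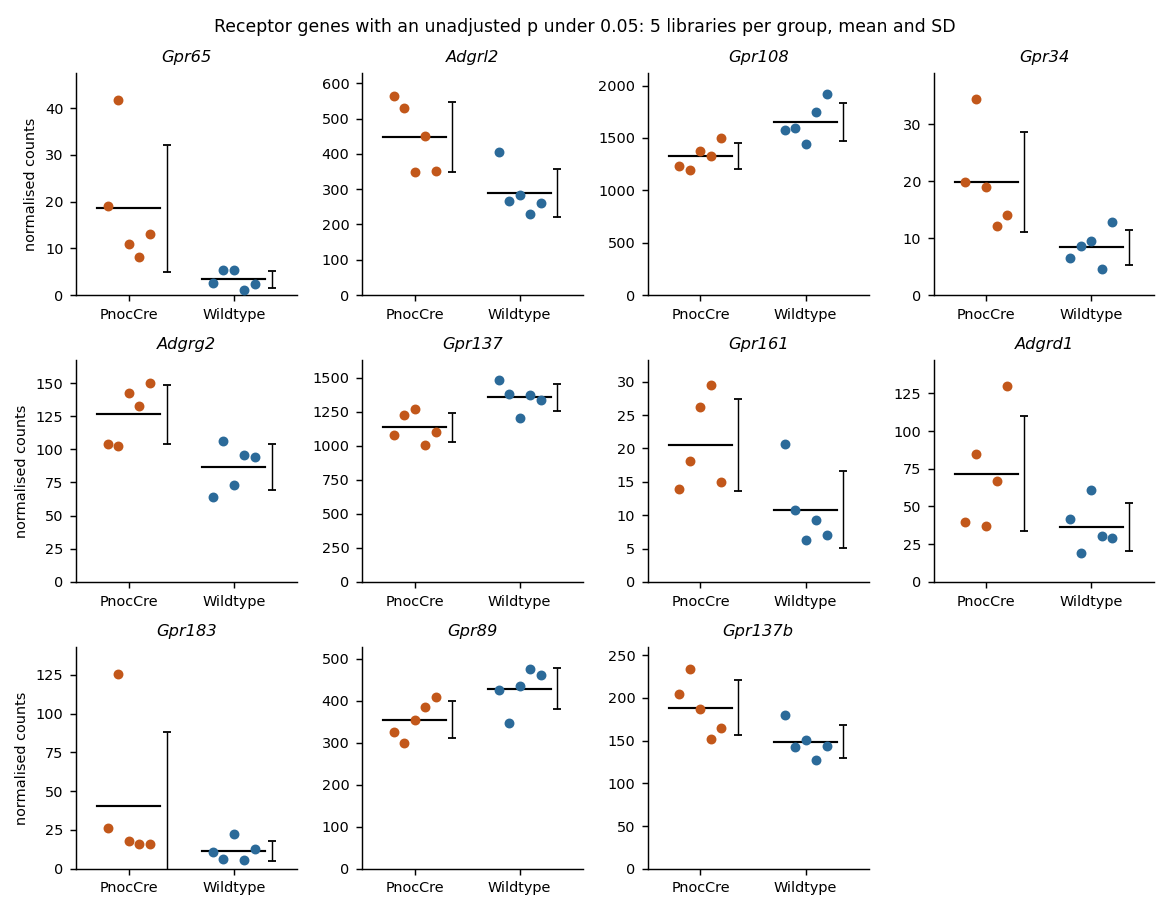
Normalised counts of the 11 receptor genes with an unadjusted p under 0.05 in the 5 PnocCre (left in each panel) and 5 Wildtype libraries, with the mean and SD beside the points; each axis starts at 0, where the SD bar of Gpr183 in PnocCre libraries is cut. The groups are apart for Gpr65 alone, and Gpr108, Gpr137 and Gpr89 are the 3 that are lower in PnocCre libraries.

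Gpr161 (chr1:165123358-165154314, plus strand) raises cyclic AMP in the primary cilium and holds hedgehog signalling down. It had 13.8, 18.2, 26.1, 29.5 and 15.0 normalised counts in PnocCre libraries, against 20.6, 10.8, 6.33, 9.32 and 6.97 in Wildtype libraries. The groups overlapped through Wildtype replicate 1, which lay above 3 of the 5 PnocCre libraries. The change was 0.92 ± 0.37 (SE; limma adjusted p = 0.242).

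Gpr3 (chr4:132936651-132939847, minus strand), the cold-induced receptor of mouse brown fat, was barely detected at 1 h. It had 0.866, 0, 1.80, 4.06 and 2.002 normalised counts in PnocCre libraries, against 0, 1.08, 2.11, 1.16 and 6.97 in Wildtype libraries. The groups overlapped, the means were 1.75 ± 1.52 in PnocCre libraries and 2.26 ± 2.74 in Wildtype libraries (SD, n = 5 each), and the gene was too low to be tested. A difference in Gpr3 was not detectable at this depth.

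Of the 23 class A and C receptors known mainly from glia and neurons, 7 could be tested. All 7 were above 0 (median 0.22, range 0.079 to 0.53), against 49.3% of all tested genes. An unadjusted p under 0.05 was reached by 0 of them, against 17.0% of all tested genes. Of the metabolite and hormone receptors, Gpr146 (chr5:139363452-139382170, plus strand) was the only 1 of 4 that could be tested. It had 1394, 1151, 1619, 1560 and 1273 in PnocCre libraries, against 1500, 1421, 1751, 1467 and 1270 in Wildtype libraries. The groups overlapped (-0.09 ± 0.12, SE; limma adjusted p = 0.715), and the gene lies within 3110082I17Rik on the opposite strand. Gpr1, a chemerin receptor named after its values were seen, had a change of 1.21 that did not reach an unadjusted p of 0.05. Gpr1 passed the filter on low values only through PnocCre replicate 2, its highest library. For this gene the filter therefore favoured a higher mean in PnocCre libraries.

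The signalling partners of these receptors are given from lists, in none of which a gene passed an adjusted p of 0.05 with limma. For comparison, 8.94% of all tested genes were higher in PnocCre libraries and 8.07% lower at an unadjusted p under 0.05. Of 12 tested G protein alpha subunits, 9 were below 0 and 3 above (median -0.20). Gna15, 1 of the 3 and named after its values were seen, passed the filter on low values only through PnocCre replicate 2. The olfactory-type subunit gene Gnal was higher in PnocCre libraries (0.84) and Gnao1, of the inhibitory class, was lower (-0.54), each at an unadjusted p under 0.05. Of 10 beta and gamma subunits, 2 were lower at that threshold, Gnb2 (-0.26) and Gnb5 (-0.32). Of 7 receptor kinases and arrestins, which switch receptors off, 1 was lower, the kinase Grk5, with means of 1008 in PnocCre libraries and 1288 in Wildtype libraries (-0.39).

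Of 15 tested ligands and partners of adhesion receptors, 5 were higher in PnocCre libraries and 0 lower at an unadjusted p under 0.05 (median 0.24). Besides Cd55, Col3a1 and Tenm3 these were Thy1 (1.22) and Plxdc2 (0.44), both named after their values were seen. The fibroblast markers, of which all 10 were above 0 and 7 reached an unadjusted p under 0.05, had higher levels in PnocCre libraries beside Col3a1 and Thy1, and their part was not tested. Thy1, also a T-cell gene, had 720 normalised counts in PnocCre replicate 2, the library highest in lymphocyte markers, and 116 to 194 in its group's other libraries, against 52.4 to 123 in Wildtype libraries. Its change without that library was 0.79. Of 7 tested ligands or ligand enzymes of Gpr genes, 1 was higher, the enkephalin precursor Penk, with means of 32.5 in PnocCre libraries and 11.996 in Wildtype libraries (1.29). Penk had 69.0 in PnocCre replicate 2 and 16.2 to 32.0 in its group's other libraries, against 6.46 to 21.0 in Wildtype libraries. Without that replicate its change was 0.98. Of 18 tested receptors that once had orphan names, 3 were higher and 1 lower at that threshold (median 0.23). The 18 include P2ry10 and Celsr1, the latter named after its values were seen, only through the counts of PnocCre replicate 2. For these the filter favoured a higher mean in PnocCre libraries. P2ry10, a lysophosphatidylserine receptor of lymphocytes and 1 of the 3, was named after its values were seen. It had 139 in PnocCre replicate 2 and 6.01 to 29.4 in its group's other libraries, against 1.08 to 8.13 in Wildtype libraries (2.03, and 1.31 without that replicate and without a filter). Ffar2, a receptor of short-chain fatty acids, averaged 168 in PnocCre libraries and 65.8 in Wildtype libraries (1.26). The Wnt-modulating receptor Lgr6 averaged 1628 in PnocCre libraries and 2342 in Wildtype libraries (-0.56), and the lysophosphatidic acid receptor Lpar4 had a change of 0.76.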

How the data were processed

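PolyA RNA of 5 PnocCre and 5 Wildtype brown fat samples was sequenced in strand-specific (dUTP) libraries, per the labels' protocols. HISAT2 2.0.5, featureCounts 1.5.0-p3, DESeq2 and the build GRCm39 are named in the submitters' processing notes. The annotation release is not given in the sources used here, nor is whether counting used strand, and values of overlapping genes are uncertain. Of the receptor genes, 35 overlapped another gene, 32 on the opposite strand and 6 on the same strand, some on both. Not every overlap is named above. On the opposite strand Adgrg6 overlaps Gm10335, Gpr89 overlaps Gja5 and Gpr3 overlaps Cd164l2. The deposited signal per library is the read count of each gene divided by 1 size factor (0.858 to 1.21), and whole reads were recovered for 100% of values at a tolerance of 0.01 reads. Deposited log2 fold changes, p-values and adjusted p-values are printed only where the authors' deposited table is named.

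The main test was limma-trend (limma 3.58.1, R 4.3.3) with robust moderation, on log2(value + 1) of genes that averaged 10 normalised counts or more, 2-sided, with Benjamini-Hochberg adjustment over all of them. The log2 scale with a pseudocount understates changes of low genes. edgeR 4.0.16 and DESeq2 1.42.0 were run on the recovered reads, and the steps were tested on simulated data. No 2 libraries of a group agreed within sampling noise.

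The members, lists and tests were chosen with earlier results of these data known. Genes named are those with an unadjusted p under 0.05 or non-overlapping groups, 16 chosen by role, and the 10 highest levels; others are marked where named. Values of some genes of the set are not reported here. Pathway genes are named at an unadjusted p under 0.05 (the 3 with the smallest p per list; others are marked). Alternatives were other scaling, pseudocounts, filters, tools, library weights, marker covariates and each library left out.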

Additional observations from a re-analysis of the deposited data

Results flagged for a closer look

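In 46 groups of 5 libraries looked at (the named receptor genes in each genotype), 5 had a library apart from the other 4 by Dixon's test at its 95% critical value of 0.71, of which chance gives about 1 in 20 groups. The figure given is the gap to the nearest library over the whole range. Gpr183 had 0.909 in PnocCre libraries, with 125 normalised counts in replicate 2 and 26.0 in the next library. Adgrg1 had 0.758 (2363 against 1595) and Gpr4 had 0.735 (878 against 444) in PnocCre libraries, both in replicate 1. Adgrf5 had 0.767 (7079 against 4491) and Adgrl4 had 0.728 (1926 against 1278) in Wildtype libraries, both in replicate 1. Summed endothelial markers were highest in PnocCre replicate 1 and Wildtype replicate 1, and lymphocyte markers in PnocCre replicate 2. Their part in these values was not tested.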

How the results depend on the processing

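Under the alternatives, 18 of the 22 named receptor genes with a fitted change kept their direction throughout. DESeq2 called 1 receptor gene (Gpr65), and with 1 library left out, an alternative chosen after seeing the data, it called 0 to 3. The share of all genes is not given for those fits with 1 library left out. Every other alternative called 0, while over all genes limma called 0, library weights 53 and DESeq2 575. The count of 11 at an unadjusted p under 0.05 was 23.9% of 46, against 17.0% of all genes. With a mean of at least 50 it was 7 of 29 (24.1%, against 17.5% of all genes). With the muscle covariate it was 7 of 46 (15.2%), below the 21.3% of all genes. With the lymphocyte covariate it was 7 of 46 (15.2%, against 12.045% of all genes). With 1 library left out it was 6 to 14. The 6 were 15% of 40 without PnocCre replicate 2, against 12.4% of all genes. The 14 were 30.4% of 46 without PnocCre replicate 4, against 21.04% of all genes. The median log2 fold change of 0.23 was 0.11 with a mean of at least 50, 0.47 with the muscle covariate and 0.079 with the lymphocyte covariate. It was 0.12 to 0.36 with 1 library left out. No receptor gene had groups that did not overlap at a mean of at least 50 (0 of 29, against 4.73% of all genes). With 1 library left out 0 to 4 had, against 4.99% to 7.95% of all genes. Adgre5 was -0.011 with the lymphocyte covariate. Adgrg6 was -0.10 with library weights, -0.11 with the lymphocyte covariate and -0.084 (without PnocCre replicate 1) to 0.33 with 1 library left out, and below 0 without PnocCre replicate 2 or Wildtype replicate 3 too. Gpr155 was 0.0022 with edgeR, 0.069 with the lymphocyte covariate and -0.19 to 0.075 with 1 library left out, above 0 without PnocCre replicate 1, 2 or 3 or Wildtype replicate 3 or 5. Gpr4 was -0.090 without PnocCre replicate 1 and up to 0.31 with another library left out. The cause was not tested. A fit without a filter and without PnocCre replicate 2, also chosen after seeing the data, called 0 and gave Adgrg6 -0.020 and Gpr155 0.0018. No paired analysis was possible because the labels give the groups no shared replicate numbers. Depth limits the 37 genes under the filter, for which a difference was not tested.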
